A study of Rattus norvegicus with 12 samples.

Results

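The genes described here are the Bcl2 family, the caspases and their closest partners, as measured in rat dorsal root ganglia in the first hours after sciatic nerve injury. They were chosen by a rule on gene names, with earlier results of these data known. The rule took names that begin with Bcl2 or with Casp and a number, together with Bax, Bak1, Bad, Bid, Bik, Bok, Bmf, Bbc3, Pmaip1, Hrk, Mcl1, Apaf1, Cycs, Diablo, Xiap and Cflar. The rule found 35 of the 35287 gene names on the array. No probe carried the name Pmaip1. Casp14 and Bcl2l14 were not well above background on any array, so 33 genes were tested among 29623.

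The dorsal root ganglion holds the cell bodies of the sensory neurons whose axons run in the sciatic nerve, with satellite glia, Schwann cells, blood vessels and immune cells around them. All animals were male Sprague-Dawley rats of 180 to 220 g in which 1 cm of the left sciatic nerve had been resected at mid-thigh, and the ganglia were taken 0.5, 3, 6 or 9 h later. The labels give 24 rats in 4 groups of 6 and 3 arrays per time (12 in all), without saying which animals' RNA went onto which array, so the p-values measure the spread between these samples and part of it may be technical. No uninjured animals are labelled, so the 0.5 h group, already injured, was the reference. In whole ganglia, fewer cells of a type and less RNA per cell cannot be told apart.

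The Bcl2 family decides whether the outer mitochondrial membrane stays closed. Survival members such as Bcl2, Bcl-xL and Mcl1 hold the pore-forming effectors Bax and Bak in check, and the BH3-only members bind to survival members or effectors when a cell is stressed. Once the membrane opens, cytochrome c joins Apaf1 to activate caspase-9, which cuts further caspases, while death receptors activate caspase-8 directly. In sensory neurons, loss of target-derived growth factors is a classical trigger of this route, and much of its control lies in protein binding and cleavage, which an RNA array does not measure.

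A level is given here as log2 of the array's signal minus that array's 75th percentile, so that 0 is the 75th percentile of all probes, and levels of different probes were not set against each other. A difference is the later time minus the earlier time on this log2 scale, with its standard error (SE) from limma. A gene was called where its p, adjusted by Benjamini-Hochberg over all 29623 genes, was under 0.05, and only called differences are described as a rise or a fall.

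Each array reads a gene through 60-base probes, and several of the results depend on which probe of the gene was read. The first 30 bases of the probes of Bcl2 and Bax are shown because the calls of these genes differed between their probes. The brightest probe of Bcl2 (chr13:12903960-12904017, minus strand, build rn4) belongs to the Bcl-2 beta transcript, and the other (chr13:12904758-12904817) to the reference transcript. The brightest probe of Bax (chr1:95932941-95933000, minus strand) is annotated as splice variant k, and the files give no position for the other.
Bcl2, brightest probe: gagttacttagtccaagtagctttgctgca
Bcl2, other probe: tccattataagctgtcacagaggggctacg
Bax, brightest probe: tgtcttttcttcataaattatgacattttt
Bax, other probe: tggagatgaactggacaataatatggagct

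The 250 bases before the start of Bcl2, Bad and Bmf are shown because these 3 genes were called higher at both 3 h and 9 h than at 0.5 h. Casp8 was too, but no sequence is shown for it. The 3 sequences come from RefSeq on build GRCr8: Bcl2 at chr13:23366901-23367150 (minus strand), Bad at chr1:213562864-213563113 (plus strand) and Bmf at chr3:125974065-125974314 (minus strand). Capitals mark matches to motifs searched on both strands, which were AP-1 (TGANTCA), CRE (TGACGTCA), an E-box (CACGTG), a STAT-type GAS element (TTCNNNGAA) and a GC box (GGGCGG).
Bcl2: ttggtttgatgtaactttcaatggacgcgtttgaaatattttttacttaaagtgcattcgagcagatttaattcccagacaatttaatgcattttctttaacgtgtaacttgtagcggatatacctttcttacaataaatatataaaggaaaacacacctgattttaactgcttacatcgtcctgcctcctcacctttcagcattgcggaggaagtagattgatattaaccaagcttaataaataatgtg
Bad: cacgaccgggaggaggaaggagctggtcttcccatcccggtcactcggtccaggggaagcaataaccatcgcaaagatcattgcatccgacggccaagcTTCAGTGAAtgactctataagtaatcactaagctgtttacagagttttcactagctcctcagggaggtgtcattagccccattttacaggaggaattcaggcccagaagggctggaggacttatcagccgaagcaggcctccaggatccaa
Bmf: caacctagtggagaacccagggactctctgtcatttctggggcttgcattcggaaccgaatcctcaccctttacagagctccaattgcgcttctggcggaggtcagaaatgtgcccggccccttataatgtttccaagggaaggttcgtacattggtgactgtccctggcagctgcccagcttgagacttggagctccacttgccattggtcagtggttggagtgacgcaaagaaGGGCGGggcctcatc

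The 3 stretches shared none of these motifs. Bad held a GAS match at -151 to -143 from its start, Bmf a GC box at -15 to -10, and the Bcl2 stretch no match. Of the 35 genes, 24 had a promoter entry. Over windows of 300 bases (250 before to 50 after the start), the GC box was in 15 of the 24, against 33.1% of all 33469 promoters in the table. The GAS element was in 2 (Bad and Casp12, 8.87% of all promoters), and AP-1 was in 2 (Bcl2a1d and Diablo, 7.33%). CRE and the E-box were in none of the 24 (1.83% and 6.42% of all promoters). A match describes letters in the window and says nothing of binding.

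At 3 h, 9 of the 33 genes differed from 0.5 h, where 22.7% of all genes tested were called (9.69% higher and 13.0% lower). The 5 rises were in Bcl2 and in genes that promote death (Bad, Bmf, Hrk and Casp8, the last of which passed the filter only through the later times), and the 4 falls in Bax, Bcl2l2, Casp12 and Xiap. At 6 h only Bcl2, which was higher, and Diablo, which was lower, were called, against 13.4% of all genes (4.07% higher and 9.31% lower). At 9 h, 11 genes were called, against 33.4% of all genes (22.7% higher and 10.7% lower). Bad, Bcl2, Bcl2l10, Bcl2l13, Bid, Bmf, Casp4 and Casp8 were higher, and Bax, Cflar and Xiap were lower.

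From 3 h to 6 h, 2 genes were called, among them Bmf, which fell, against 10.4% of all genes called (5.93% higher and 4.45% lower). From 6 h to 9 h, Bcl2, Bcl2l10, Casp12 and Casp4 rose and none fell, against 25.1% of all genes called (19.2% higher and 5.93% lower). Over the 4 times, a moderated F test called 14 of the 33 genes, against 43.6% of all genes. The share of these genes called was thus near that of all genes at 3 h and 9 h against 0.5 h and over all times, and below it in the other 3 comparisons. The comparisons with 0.5 h share the same 3 reference arrays. In all, 16 genes were called in at least 1 comparison and 17 in none, and 50.5% of all genes were called in at least 1.

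On all 12 arrays, 29 of the 33 genes were well above background, among 21390 genes in all. Of these 29, 8 were called at 3 h, 2 at 6 h and 10 at 9 h against 0.5 h, where 24.8%, 13.2% and 30.0% of the 21390 were called. From 3 h to 6 h 2 of the 29 were called, against 11.7%, and from 6 h to 9 h 4, against 20.5%.

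**Figure D1:**
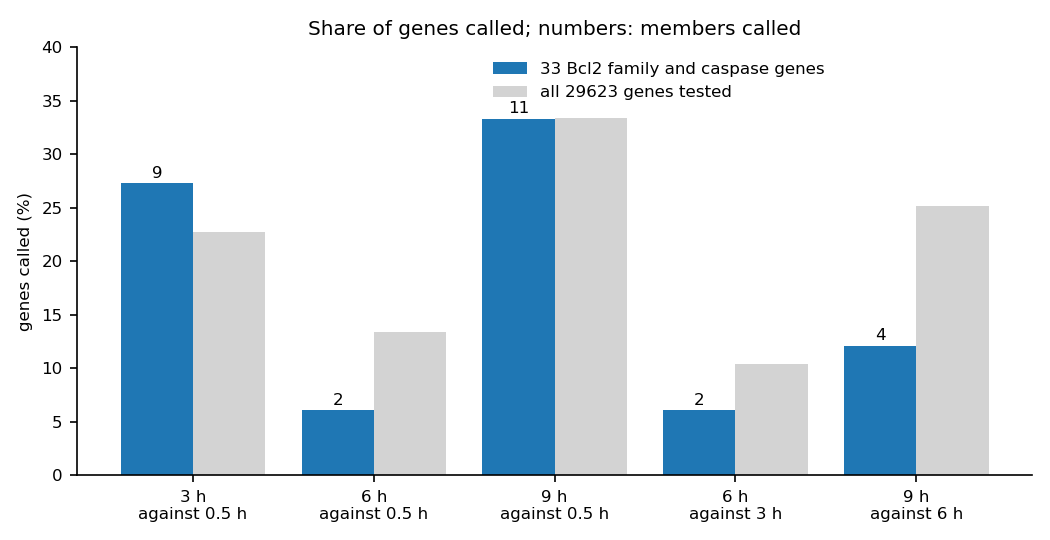
Percent of genes called at an adjusted p under 0.05 in each of the 5 comparisons, for the 33 Bcl2 family and caspase genes (blue) and for all 29623 genes tested (grey); the number on each blue bar counts the genes called. At 3 h and 9 h against 0.5 h the blue and grey bars are of like height (27.3% and 22.7%, then 33.3% and 33.4%), and in the other 3 comparisons the blue bar is the lower.

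Most differences were small. Without regard to sign, the median difference of the 33 genes was 0.19 at 3 h, 0.15 at 6 h and 0.17 at 9 h against 0.5 h. That of all genes was 0.20, 0.17 and 0.24. With the sign kept, so that rises and falls cancel, the medians were 0.05, 0.05 and 0.09. Those of all genes were then 0.02, -0.04 and 0.10. The largest called difference against 0.5 h was that of Bcl2l10 at 9 h (0.77), and the largest called difference of all was that of Bcl2l10 from 6 h to 9 h (1.28, a fold of 2.43). The arrays of the later time lay wholly above or wholly below those of the 0.5 h group for 13 of the 33 genes at 3 h, 14 at 6 h and 17 at 9 h. Among all genes this held for 40.7%, 37.1% and 48.7%. Between 3 h and 6 h it held for 13 of the 33 and 35.0% of all genes, and between 6 h and 9 h for 11 and 44.3%.

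**Figure D2:**
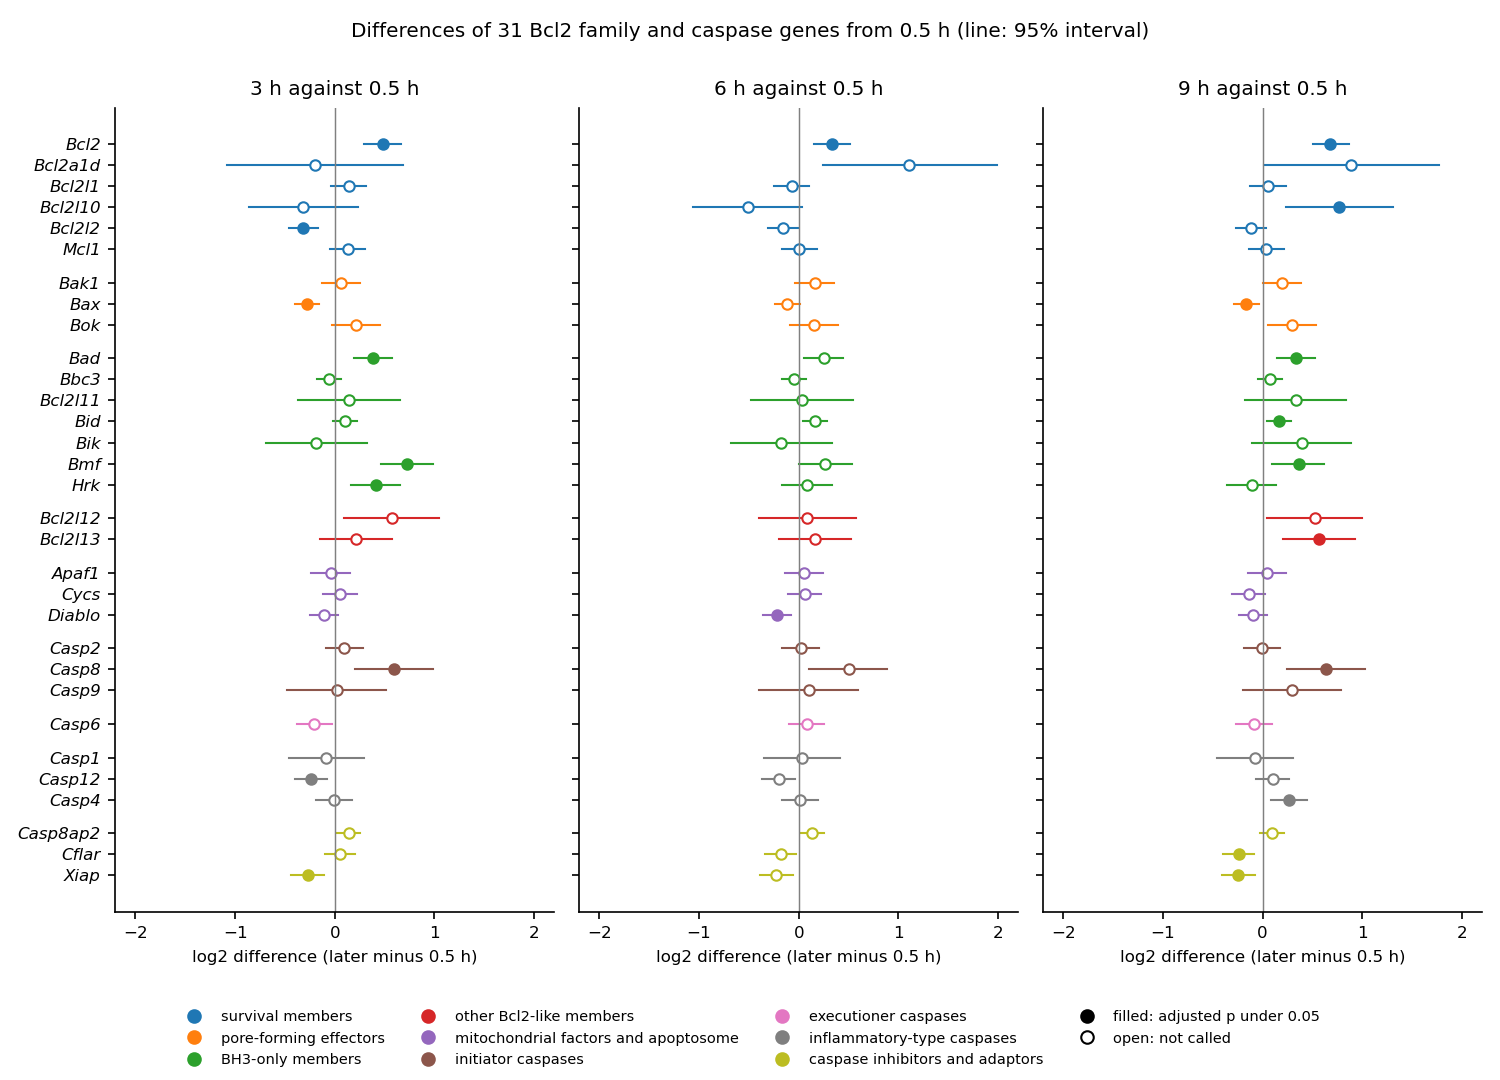
Difference of each of 31 of the genes at 3, 6 and 9 h from 0.5 h on the log2 scale (points) with its 95% interval (lines), grouped by role; filled points were called. Most points lie within 0.5 of 0, and the filled ones lie on both sides of 0 in each panel.

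Among the 6 survival genes tested, Bcl2 was the only one called higher at every later time, while Bcl2l2 was lower at 3 h and Bcl2l10 was higher at 9 h. Bcl2, the founding member, guards the outer mitochondrial membrane. Its levels were -2.17, -2.02 and -2.16 at 0.5 h, -1.70, -1.67 and -1.54 at 3 h, -1.70, -1.70 and -1.95 at 6 h, and -1.44, -1.46 and -1.40 at 9 h. Each later array was above each 0.5 h array, and the 9 h arrays were the highest of all. Bcl2 rose by 0.48 (SE 0.08, adjusted p = 0.00321) at 3 h, 0.33 (SE 0.08, adjusted p = 0.0273) at 6 h and 0.68 (SE 0.08, adjusted p = 3.61e-04) at 9 h, the last a fold of 1.61. It also rose from 6 h to 9 h, by 0.35 (adjusted p = 0.0104). The other and dimmer Bcl2 probe was not called at 3 h (0.30, adjusted p = 0.131) or 6 h (0.14, adjusted p = 0.511). The 9 h call of the brightest probe was kept in all 25 alternative fits that could be run for it, while the 6 h call was lost in 9 of 25. The 6 h call was lost when an array was left out in 4 cases, namely 0.5 h replicates 1 (adjusted p = 0.0722) and 3 (0.0785) and 6 h replicates 1 (0.0923) and 2 (0.0882).

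Bcl2l10, a Bcl2-like gene known mainly from the ovary, showed the largest called difference. It read -2.55, -1.92 and -1.86 at 0.5 h, -2.25, -2.87 and -2.15 at 3 h, -2.76, -2.28 and -2.82 at 6 h, and -1.53, -1.30 and -1.19 at 9 h. The 9 h arrays stood above all 9 others, which overlapped between times. The rise at 9 h was 0.77 (SE 0.24, adjusted p = 0.0348) against 0.5 h and 1.28 (SE 0.24, adjusted p = 0.00327) against 6 h. The former was not called when 0.5 h replicate 1 was left out (0.55, adjusted p = 0.109), nor without 9 h replicate 2 (0.75, 0.0846) or 3 (0.69, 0.0992), and the latter was called without any 1 array.

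Bcl2l2, which encodes Bcl-w, a survival protein of adult neurons, fell by 0.32 on the log2 scale at 3 h (SE 0.07, adjusted p = 0.00853), from 3.24 ± 0.07 (SD, n = 3) to 2.92 ± 0.09 (SD, n = 3). At 6 h it was 3.08 ± 0.01 and at 9 h 3.12 ± 0.07, and neither was called. A second and dimmer probe of Bcl2l2 differed by 0.06 (SE 0.21) at 3 h, and the mean over both probes by -0.13 (adjusted p = 0.406).

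Bcl2l1 encodes Bcl-xL, and the result depended on the probe. The brightest probe read 2.05, 1.90 and 2.15 at 0.5 h, 2.26, 2.16 and 2.08 at 3 h, 2.00, 1.90 and 1.97 at 6 h, and 2.17, 2.07 and 2.01 at 9 h. Each later time overlapped with 0.5 h, and the difference at 9 h was 0.05 (95% interval -0.13 to 0.23). This probe (chr3:143129343-143129402) is annotated to transcript variant 3. The other kept probes, which lie at chr3:143178021-143178080 and chr3:143178503-143178562, were dimmer, with mean levels of -3.66 and -3.93. They were higher at 9 h than at 0.5 h by 0.40 (SE 0.12, adjusted p = 0.0315) and 0.88 (SE 0.13, adjusted p = 0.00104). A further probe, spotted 10 times, was well above background on no array and was not kept. The mean over the 3 probes was 0.44 higher at 9 h (adjusted p = 0.00226), so a Bcl2l1 rise was called under that rule and not under the brightest-probe rule.

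Mcl1, a short-lived survival protein, read 1.48, 1.25 and 1.46 at 0.5 h, 1.44, 1.61 and 1.50 at 3 h, 1.38, 1.43 and 1.38 at 6 h, and 1.39, 1.53 and 1.37 at 9 h. All times overlapped with 0.5 h, and the 95% interval of the difference was -0.05 to 0.30 at 3 h, -0.17 to 0.18 at 6 h and -0.14 to 0.21 at 9 h.

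Bcl2a1d (current symbol Bcl2a1), the family member best known from leukocytes, was too dim at 0.5 h to count as well above background, and it entered the test only through the later times. It read -5.74, -5.46 and -5.61 at 0.5 h, -6.82, -5.19 and -5.40 at 3 h, -4.91, -4.26 and -4.30 at 6 h, and -5.11, -4.26 and -4.77 at 9 h. All 6 h and 9 h arrays were above those of 0.5 h. The F test over the 4 times called it (adjusted p = 0.0438), and no pair of times was called. The difference at 6 h was 1.11 (adjusted p = 0.0913), so it was not called. It was 0.28 with a common detection floor (adjusted p = 0.267) and 0.04 with 1 background value per array (adjusted p = 0.863), and it ranged from 0.04 to 1.32 over the alternative fits, 5 of which called it.

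Of 12 neutrophil markers, 9 were tested and 6 of those were detected on every array. Their mean level was -2.29 to -1.59 at 0.5 h, -2.49 to -1.91 at 3 h, -2.00 to 0.50 at 6 h and -1.50 to -0.92 at 9 h, none of the 9 called. The top value was that of 6 h replicate 3. The part of these cells in the level of Bcl2a1d was not tested.

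**Figure D3:**
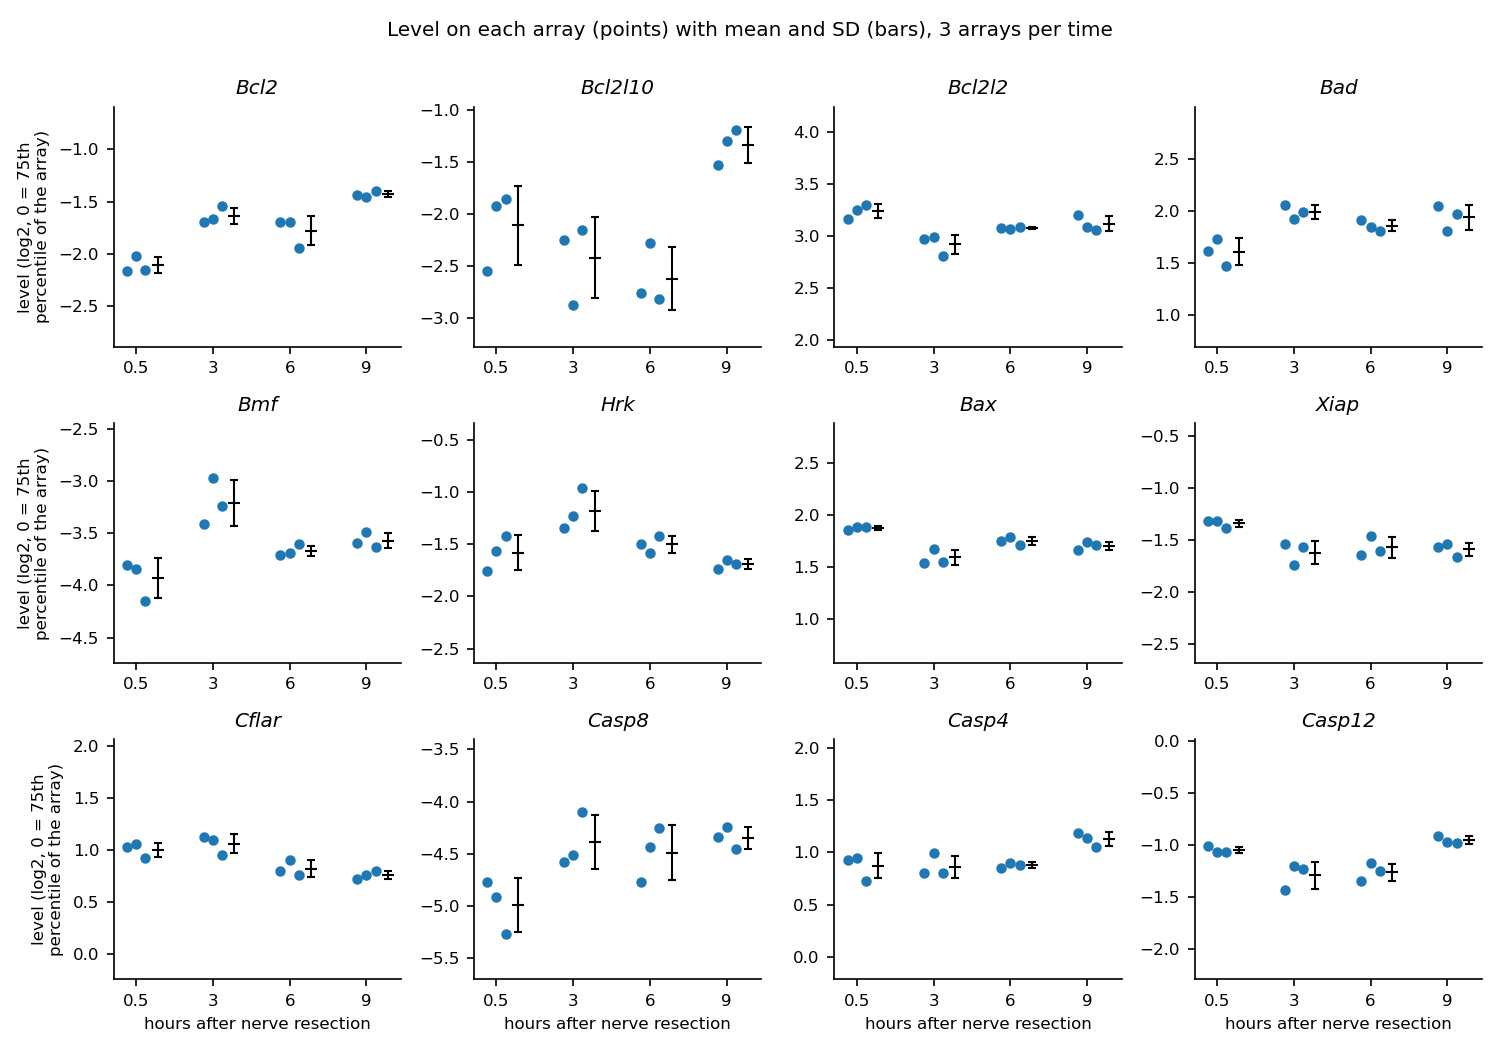
Level of 12 genes on each array (points, 3 per time) with the mean and SD of each time (bars), on the log2 scale where 0 is the array's 75th percentile; each panel spans the same width in log2. Bcl2 is above its 0.5 h arrays at all later times, Bcl2l10 stands out at 9 h only, and Bmf and Hrk are highest at 3 h.

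The pore-forming effectors showed 1 called gene of 3, Bax, and this call rested on the splice-variant probe. That probe read 1.85, 1.88 and 1.88 at 0.5 h, 1.54, 1.67 and 1.55 at 3 h, 1.75, 1.79 and 1.71 at 6 h, and 1.66, 1.74 and 1.71 at 9 h. Every later array was below every 0.5 h array. The probe fell by 0.28 on the log2 scale at 3 h (SE 0.06, adjusted p = 0.00634) and dropped by 0.17 at 9 h (SE 0.06, adjusted p = 0.0415), while at 6 h the difference was -0.12 and not called (adjusted p = 0.193).

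The other Bax probe, spotted 10 times on each array and annotated to the reference transcript, read 0.55, 0.51 and 0.50 at 0.5 h and 0.58, 0.63 and 0.48 at 3 h. Its difference was 0.04 at 3 h, 0.07 at 6 h and 0.02 at 9 h (SE 0.05 each). Its 3 h and 9 h arrays overlapped with those of 0.5 h, while the 6 h arrays (0.64, 0.56 and 0.57) lay just above them, without a call. The mean over both probes was -0.12 at 3 h (adjusted p = 0.132). The 3 h call of the splice-variant probe was kept without any 1 array. Its 9 h call was kept only without 3 h replicate 2 or 3, and was lost without any of the other 10 arrays (adjusted p = 0.0545 to 0.106). Bak1, the partner of Bax, differed by 0.19 at 9 h (95% interval 0.00 to 0.38, not called), and Bok, a related effector, by 0.29 (0.05 to 0.53, adjusted p = 0.0657).

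The BH3-only genes held 3 of the 5 rises at 3 h, those of Bad, Bmf and Hrk. Of the 7 tested, none was called at 6 h, and at 9 h Bad, Bid and Bmf were higher than at 0.5 h. Bad, whose protein is held inactive by growth-factor signalling through phosphorylation, read 1.62, 1.73 and 1.47 at 0.5 h, 2.06, 1.92 and 1.99 at 3 h, 1.91, 1.85 and 1.81 at 6 h, and 2.05, 1.81 and 1.97 at 9 h. All later arrays were above all 0.5 h arrays. It rose by 0.38 at 3 h (SE 0.09, adjusted p = 0.0114) and 0.33 at 9 h (SE 0.09, adjusted p = 0.0151), and was 0.25 higher at 6 h without a call (adjusted p = 0.0876). Its second probe was called the same way, at 0.27 (adjusted p = 0.0406) and 0.35 (0.0103). The 9 h call was lost without 0.5 h replicate 3 (0.26, adjusted p = 0.0525).

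Bmf, which binds the cytoskeleton and is released when cells lose their attachment, had the largest rise of the 33 genes at 3 h. Its levels were -3.80, -3.84 and -4.15 at 0.5 h, -3.41, -2.97 and -3.24 at 3 h, -3.71, -3.69 and -3.60 at 6 h, and -3.59, -3.49 and -3.63 at 9 h. The 3 h arrays were above all others, and the 6 h and 9 h arrays lay between them and those of 0.5 h. It rose by 0.72 at 3 h (SE 0.12, fold 1.65, adjusted p = 0.00264) and fell by 0.46 on the log2 scale from 3 h to 6 h (SE 0.12, adjusted p = 0.0376). At 9 h it was 0.36 above 0.5 h (adjusted p = 0.0427). The 3 h rise was kept without any 1 array.

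The other Bmf calls were less stable. The fall to 6 h was lost without 3 h replicate 2 (-0.34, adjusted p = 0.0864) or 3 (0.0793), without any 6 h array (0.0856 to 0.101), and without 9 h replicate 2 (0.0529). The 9 h call was lost without 0.5 h replicate 2 (0.057) or 3 (0.25, adjusted p = 0.139), 3 h replicate 3 (0.0536), or any 6 h or 9 h array (0.0566 to 0.118).

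Hrk encodes a BH3-only protein known from sensory and sympathetic neurons deprived of nerve growth factor. It read -1.76, -1.56 and -1.42 at 0.5 h, -1.34, -1.23 and -0.96 at 3 h, -1.50, -1.58 and -1.42 at 6 h, and -1.74, -1.65 and -1.69 at 9 h. The 3 h arrays alone stood above the rest. It rose by 0.41 at 3 h (SE 0.11, adjusted p = 0.0262), and at 6 h and 9 h the differences were 0.08 and -0.11 with intervals that included 0. The call depended on 0.5 h replicates 1 (0.31 without it, adjusted p = 0.0803) and 2 (0.0579) and on 3 h replicate 3 (0.30, 0.0744). A dimmer second probe was 0.18 higher (SE 0.18).

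Bid, which caspase-8 cuts to link death receptors to mitochondria, was 0.74 ± 0.07 (SD, n = 3) at 0.5 h and 0.91 ± 0.01 (SD, n = 3) at 9 h. The rise was 0.16 (SE 0.05, adjusted p = 0.0465), and it was lost without any 1 array other than 0.5 h replicate 3 (adjusted p = 0.0526 to 0.14). The probe used is named Bid and placed beside the second Bid probe on chromosome 4, but its description in the files is a desmocollin mRNA. The second probe, annotated to Bid itself, differed by 0.07 (SE 0.10).

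The remaining BH3-only genes were not called in any comparison. Bbc3, which encodes Puma, a target of p53, read 1.39, 1.36 and 1.33 at 0.5 h, 1.27, 1.33 and 1.29 at 3 h, 1.29, 1.35 and 1.29 at 6 h, and 1.45, 1.35 and 1.48 at 9 h. Each later time overlapped with 0.5 h, and the 95% interval at 3 h was -0.18 to 0.06. Bcl2l11, which encodes Bim, was not well above background at 0.5 h in any replicate, nor on 1 of the 9 h arrays. It read -7.06, -7.25 and -6.76 at 0.5 h, -6.96, -7.00 and -6.69 at 3 h, -7.16, -6.74 and -7.07 at 6 h, and -6.58, -7.22 and -6.28 at 9 h. These signals were too dim for a fold, and the sign and call of Bim moved with the scaling and the background. Under quantile scaling Bcl2l11 was called higher at all later times (1.85, 1.84 and 1.48 at 3, 6 and 9 h), as it was under cyclic loess (1.18, 1.23 and 0.99). With 1 background value per array it was called lower at 3 h (-0.30) and 6 h (-0.38), so no direction can be given for it. Bik, for which 0.5 h replicate 1 was an outlier spot and left out, was 0.39 higher at 9 h (SE 0.22, adjusted p = 0.208).

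Of the less studied Bcl2-like genes, Bcl2l13, a mitochondrial membrane protein that also takes part in mitophagy, rose at 9 h. It was -3.31 ± 0.05 (SD, n = 3) at 0.5 h and -2.74 ± 0.20 (SD, n = 3) at 9 h, a rise of 0.57 (SE 0.16, adjusted p = 0.0237). The call was lost without 0.5 h replicate 2 (0.56, adjusted p = 0.0597) or 3 (0.0641), or 9 h replicate 2 (0.0652) or 3 (0.48, 0.0798). Bcl2l12 was 0.57 higher at 3 h (SE 0.22, adjusted p = 0.0856) and 0.52 higher at 9 h (adjusted p = 0.0883), neither called.

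The mitochondrial factors showed 1 call. Diablo, whose protein blocks the inhibitors of caspases once it leaves the mitochondria, was 5.81 ± 0.06 (SD, n = 3) at 0.5 h and 5.59 ± 0.06 (SD, n = 3) at 6 h. This difference of -0.22 (SE 0.06, adjusted p = 0.0499) lay at the threshold and was lost without any 1 array other than 9 h replicate 3 (adjusted p = 0.051 to 0.141). Cycs, for cytochrome c, and Apaf1, the core of the apoptosome, were not called at any time. The 3 probes of Cycs differed at 9 h by -0.14 each, none called, and the interval for Apaf1 at 9 h was -0.15 to 0.23.

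Among the initiator caspases, Casp8, which acts below death receptors, was called higher at 3 h and 9 h. None of its 0.5 h signals was well above background, so it entered the test only through the later times and its calls are given as a description. Its levels were -4.77, -4.92 and -5.27 at 0.5 h, -4.58, -4.51 and -4.10 at 3 h, -4.77, -4.44 and -4.25 at 6 h, and -4.34, -4.24 and -4.46 at 9 h. The 3 h and 9 h arrays were above those of 0.5 h, and 1 of the 6 h arrays was not. It was at least 1.32-fold higher at 3 h (adjusted p = 0.0382) and at least 1.36-fold higher at 9 h (adjusted p = 0.0208), against the lowest signal that counted as well above background. With all dim signals set to a common floor, neither was called (0.31, adjusted p = 0.18, and 0.36, adjusted p = 0.103), nor was either under cyclic loess (0.41 and 0.19).

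The 3 h call of Casp8 was lost without 0.5 h replicate 2 (0.0703) or 3 (0.121), 3 h replicate 2 (0.0575) or 3 (0.118), 6 h replicate 2 (0.0533), or 9 h replicate 1 (0.0503) or 2 (0.0511), each an adjusted p. The 9 h call was lost without 0.5 h replicate 3 (0.0708) or 9 h replicate 2 (0.0651). With 1 background value per array the difference was -0.02 at 9 h (adjusted p = 0.898), and with the usual normexp correction it was 0.93 (adjusted p = 0.394), so the value depended on how background was handled. Around the spots the scanner measured a background of 64 to 86 intensity units for the 0.5 h group and 37 to 45 for the later groups, and the part of this gap in the Casp8 result was otherwise not tested.

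Casp9, the caspase of the apoptosome, differed by 0.29 at 9 h with its brightest probe (SE 0.22, not called), while its second probe was 0.35 higher (SE 0.07, adjusted p = 0.0069). Casp2, an initiator activated after DNA damage, differed by -0.01 at 9 h (95% interval -0.19 to 0.17).

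Casp6, an effector caspase with a known part in axon breakdown, differed by -0.21 at 3 h (adjusted p = 0.0903) and by 0.28 from 3 h to 6 h (SE 0.08, adjusted p = 0.0513), neither called. It read 0.39, 0.42 and 0.62 at 0.5 h, 0.17, 0.28 and 0.37 at 3 h, 0.53, 0.58 and 0.56 at 6 h, and 0.47, 0.38 and 0.32 at 9 h. All 3 h arrays were below those of 0.5 h and 6 h, while the 9 h arrays overlapped with both 0.5 h and 3 h.

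The inflammatory-type caspases Casp1, Casp4 and Casp12 lie together on chromosome 8, with probes starting at positions 2032917, 2075044 and 2109935 of build rn4, and the latter pair were called. Casp12, which sits at the endoplasmic reticulum, read -1.01, -1.07 and -1.07 at 0.5 h, -1.43, -1.20 and -1.23 at 3 h, -1.34, -1.17 and -1.25 at 6 h, and -0.91, -0.97 and -0.98 at 9 h. The 3 h and 6 h arrays were below all others. It fell by 0.24 on the log2 scale at 3 h (SE 0.07, adjusted p = 0.0411) and rose by 0.30 from 6 h to 9 h (SE 0.07, adjusted p = 0.0129). The later rise was kept without any 1 array. The 3 h fall was lost without any 0.5 h array (adjusted p = 0.0792 to 0.105), 3 h replicate 1 (-0.17, 0.133) or 3 (0.0536), 6 h replicate 3 (0.0602), or 9 h replicate 2 (0.0572) or 3 (0.0536).

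Casp4, the rodent caspase of the lipopolysaccharide-driven inflammasome, read 0.93, 0.95 and 0.73 at 0.5 h, 0.80, 0.99 and 0.80 at 3 h, 0.85, 0.90 and 0.88 at 6 h, and 1.19, 1.14 and 1.05 at 9 h. The 9 h arrays were the highest of all and the earlier times overlapped. It rose by 0.26 at 9 h against 0.5 h (SE 0.08, adjusted p = 0.0312) and by 0.25 against 6 h (SE 0.08, adjusted p = 0.0444). The first call depended on 0.5 h replicate 3 (0.19 without it, adjusted p = 0.104) and on 9 h replicates 1 (0.0847) and 2 (0.0779). The second was lost without any 1 array other than 0.5 h replicate 3 and 3 h replicates 2 and 3 (0.0503 to 0.114). Casp1, which matures interleukin-1 beta, differed by -0.08 at 9 h (95% interval -0.46 to 0.30).

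The inhibitors Xiap and Cflar were called lower than at 0.5 h, Xiap at 3 h and 9 h and Cflar at 9 h. Xiap, which binds and blocks active caspases, read -1.32, -1.32 and -1.38 at 0.5 h, -1.54, -1.74 and -1.57 at 3 h, -1.64, -1.46 and -1.60 at 6 h, and -1.57, -1.54 and -1.66 at 9 h. Every later array was below every 0.5 h array. It fell by 0.27 on the log2 scale at 3 h (SE 0.07, adjusted p = 0.0255) and dropped by 0.25 at 9 h (SE 0.07, adjusted p = 0.0268), with -0.23 at 6 h (adjusted p = 0.0701). Without 0.5 h replicate 1 or 2, neither fall was called (0.0666 and 0.0696 at 3 h, 0.0676 and 0.071 at 9 h). The same held at 3 h without 3 h replicate 2 (-0.21, 0.0719) and at 9 h without 9 h replicate 3 (-0.21, 0.0881).

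Cflar, the caspase-8 decoy c-FLIP, lies beside Casp8 on chromosome 9. It fell by 0.24 on the log2 scale at 9 h (SE 0.07, adjusted p = 0.0212), from 1.00 ± 0.07 (SD, n = 3) to 0.76 ± 0.04 (SD, n = 3). The call was lost without 0.5 h replicate 1 (0.0577) or 2 (0.0696), or 9 h replicate 1 (0.0564) or 2 (0.0527). Casp8ap2, a nuclear protein named for its binding to caspase-8, was not called with its brightest probe (0.09 at 9 h). Its second probe was lower at 9 h, at -0.60 (SE 0.10, adjusted p = 0.00227), and the mean over both was -0.25 (adjusted p = 0.0142).

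For the 12 genes with more than 1 kept probe, 14 further probes were available. At 3 h, 7 of the 14 had the sign of the brightest probe, and at 9 h 9 of the 14. No gene had probes called in opposite directions. The probes agreed in sign and call for Bad at 3 h and 9 h and for Bcl2 at 9 h, where the other Bcl2 probe was 0.53 higher (SE 0.13, adjusted p = 0.012).

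**Figure D4:**
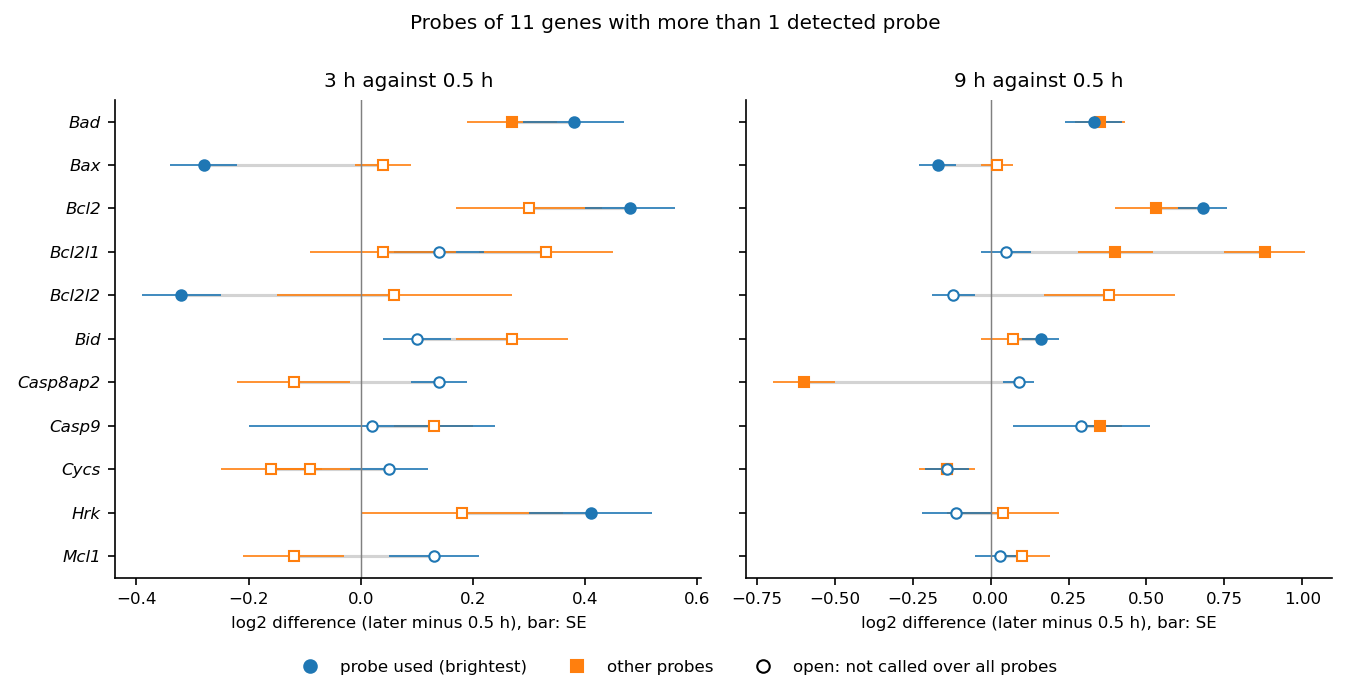
Difference from 0.5 h at 3 h (left) and 9 h (right) of each kept probe of 11 genes with more than 1, as log2 with its SE; circles are the brightest probe, squares the others, and filled symbols were called. The probes of Bad lie together on both sides, while those of Bax lie apart at 3 h and those of Bcl2l1 and Casp8ap2 lie apart at 9 h.

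Other genes of the pathway were described by list, and each count can be read against all genes, of which 9.69% were called higher and 13.0% lower at 3 h, 4.07% and 9.31% at 6 h, and 22.7% and 10.7% at 9 h. Among death receptors and their adaptors, 5 of 13 were called higher at 9 h and none lower, against 22.7% and 10.7% of all genes. Fadd, the adaptor that carries caspase-8 to receptors, rose by 0.42 at 3 h (SE 0.13, adjusted p = 0.0394) and 0.62 at 9 h (SE 0.13, adjusted p = 0.00483). Cradd, an adaptor of caspase-2, was not well above background at 0.5 h and entered the test only through the later times. Its call, 1 of the 5 at 9 h, is thus given as a description. It was at least 1.77-fold higher at 9 h (adjusted p = 7.69e-04). The receptor Tnfrsf1a fell by 0.28 on the log2 scale at 3 h (adjusted p = 0.0241) and rose by 0.30 from 3 h to 6 h (adjusted p = 0.0321). The list's median at 9 h was 0.23, against 0.10 over all genes.

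Among mitochondrial release factors and channels, 2 of 13 rose and 3 fell at 9 h, against 22.7% and 10.7% of all genes. Vdac1, the main channel of the outer membrane, was lower at each time, at -0.41 (adjusted p = 0.00689), -0.59 (0.00302) and -0.38 (0.00687), as was the inner-membrane carrier Slc25a4 (-0.20, -0.23 and -0.30). The protease Htra2 rose by 0.36 (adjusted p = 0.00187) and the nuclease Endog by 0.24 (adjusted p = 0.0293) at 9 h.

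Of 19 genes that act upstream in neurons, 3 rose at 3 h, 1 rose and 2 fell at 6 h, and 4 rose at 9 h, where 22.7% of all genes were higher. At 9 h these included the injury-induced transcription factors Atf3, by 1.83 (SE 0.22, adjusted p = 3.81e-04), and Jun, by 0.58 (SE 0.09, adjusted p = 0.00101), both of which also rose from 6 h to 9 h. The mixed-lineage kinase Map3k10, which feeds the Jun kinases and was detected by 2 of the 3 arrays at 0.5 h, rose by 0.32 at 3 h and 0.46 at 9 h. Of 13 genes of the p53 list, 1 rose at 3 h and 2 at 9 h. From 6 h to 9 h 2 rose, against 19.2% of all genes. Cdkn1a, a cell-cycle inhibitor, rose by 1.05 at 3 h (SE 0.20, adjusted p = 0.00541) and 0.62 at 9 h (0.0385). Tp53inp1 rose by 0.41 at 9 h (adjusted p = 0.00194) and by 0.51 from 6 h to 9 h (4.27e-04). Tp73, well above background on 10 of the 12 arrays, rose by 2.31 from 6 h to 9 h (SE 0.43, adjusted p = 0.00303). Bbc3, the p53 target within the Bcl2 family, was not among those called.

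Of the 6 inhibitor-of-apoptosis genes other than Xiap, 2 were called higher at 9 h than at 0.5 h, where 22.7% of all genes were higher. These were Birc6, detected by 2 of the 3 arrays at 0.5 h, by 0.45 (SE 0.13, adjusted p = 0.0266), and Birc7. Birc7 was not well above background at 0.5 h and entered the test only through the later times. It has no bounded fold, so no size against 0.5 h can be given and that call is only a description. Birc7 rose by 2.03 from 6 h to 9 h (SE 0.25, adjusted p = 2.55e-04). Of 8 inflammasome genes, Il1b, a substrate of caspase-1, was the only one called. It rose by 0.97 from 3 h to 6 h (SE 0.25, adjusted p = 0.0384), where 5.93% of all genes were higher. At 9 h Il1b was 0.73 above 0.5 h (SE 0.25, adjusted p = 0.0493). Of 7 calpains and partners, Capn10 rose by 0.48 (adjusted p = 0.00684) and the inhibitor Cast fell by 0.26 on the log2 scale (adjusted p = 0.0111) at 9 h. Of 10 caspase substrates, the kinase Rock1 fell by 0.44 on the log2 scale at 9 h (adjusted p = 0.0036), and of 4 necroptosis genes Cyld rose by 0.21 (adjusted p = 0.0368).

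All 12 sensory neuron markers were detected throughout (mean level 3.96 to 4.32). Schwann cell markers were at 4.89 to 5.30 at 0.5 h and 4.69 to 4.98 later. At 9 h 2 of the 7 were lower (Egr2 by -1.32 and Pmp22 by -0.35), against 10.7% of all genes. Skeletal muscle markers ranged from 1.81 to 5.27, with list medians of 1.28, 1.30 and 1.02 above 0.5 h at 3, 6 and 9 h and none of 12 called. At 9 h 22.7% of all genes were called higher and 10.7% lower, and the counts that follow can be read against these shares. At that time 2 of 6 fat markers were called higher (Cidec and Plin, list median 1.38), as were 2 of 7 endothelial markers (Cdh5 by 0.50). The same held for 2 of 7 lymphocyte, 1 of 8 macrophage and 1 of 12 sensory neuron markers. Of 7 satellite glia markers 1 was higher and 1 lower, and no fibroblast or red blood cell marker was called. Cidec, Plin, the lymphocyte marker Cd2 and the higher satellite glia marker, Kcnj10, were well above background on only 9 of the 12 arrays. Their calls are thus given as a description. The part of these cell types in the results above was not tested. At 0.5 h, 63.2 to 67.5% of probes were above background by the scanner's test, against 82.3 to 85.3% later. No slide held arrays of more than 1 time, so time and slide cannot be told apart in any comparison. The 0.5 h arrays also had a scan day of their own, as did the 9 h arrays. Only the 6 h against 3 h comparison lay within 1 scan day, and its times were still on different slides.

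The counts depended on how background and scaling were handled. With normexp background correction in place of the scanner's own, 1 of the 28 calls of these genes was kept, the 9 h rise of Bcl2, and the median SE over all genes was 0.26 in place of 0.11. With the median of each array in place of its 75th percentile, 15 of the 28 were kept and the split of rises to falls became 6 to 1 at 3 h, 5 to 0 at 6 h, 3 to 4 at 9 h and 1 to 9 from 6 h to 9 h, where it had been 5 to 4, 1 to 1, 8 to 3 and 4 to 0. The median of all genes moved from 0.10 to -0.01 at 9 h and from 0.11 to -0.10 from 6 h to 9 h. The splits under quantile scaling were 6 to 3, 4 to 0, 7 to 2 and 4 to 1, with 2 to 0 from 3 h to 6 h in place of 1 to 1. Under cyclic loess they were 5 to 4, 5 to 0, 6 to 2 and 3 to 1, and again 2 to 0. The shares of all genes called higher and lower under these scalings are not given here. The splits thus do not show a shift particular to these genes.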

How the data were processed

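RNA from 12 ganglion samples was hybridised to 1-colour Agilent arrays. Each deposited value is a spot's linear intensity after background subtraction by Feature Extraction 10.5.1.1, per the file headers. No scaling between arrays is stated there. Here control spots and outlier spots were left out, log2 was taken and each array's 75th percentile subtracted. Of 41012 probes, 34837 passed the scanner's test for signal well above background on every array of some time, and each gene was read by its brightest kept probe. In R 4.3.3 (with data.table version 1.17.8), limma 3.58.1 fitted group means to all 12 arrays. The fit was run on simulated data without slide, scan-day or background effects, so that run says nothing on those effects here. A gene dim at 1 time has a bound in place of a fold.

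Named with values were all called members, 28 listed members whatever their result, and up to 4 called genes per pathway list and comparison whose arrays did not overlap, some of which are left out here. The members, lists and tests were chosen with earlier results of these data known. Alternatives changed background, scaling, filter, probe rule, variance model, samples and blocks. Coordinates are the files' (rn4), and exon positions were not analysed here. No depth applies to arrays, and 3 arrays per time limit the precision. Results for some of the 33 genes are not reported here.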

Additional observations from a re-analysis of the deposited data

How the results depend on the processing

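Counts of called genes are given in the order 3 h, 6 h and 9 h against 0.5 h, 6 h against 3 h, 9 h against 6 h, and any time, where they were 9, 2, 11, 2, 4 and 14. Normexp gave 0, 0, 1, 0, 0 and 0, with 8, 2, 6, 3 and 3 genes at an unadjusted p under 0.05 in limma. Slide as a random block (correlation -0.25) gave 16, 13, 18, 10, 10 and 26. Only the 6 h arrays lay on more than 1 slide, so that correlation could hardly be estimated apart from the times. The higher counts of this fit therefore say nothing on how stable the calls are. At 6 h against 0.5 h the count was 4 with quantile scaling or a common floor, 5 with median or cyclic loess scaling, and 1 with the mean of all probes or only the times compared. Median scaling also gave 7 at 9 h, 1 from 3 h to 6 h and 10 from 6 h to 9 h. Only the times compared gave 5 at 3 h and 7 at 9 h. The 3 h to 6 h count was 4 for genes detected on all 12 arrays and 5 with an intensity trend or the floor, and that from 6 h to 9 h was 7 with the mean of all probes. Normexp with 1 background value per array, added after seeing the data, gave 6 at 6 h, 5 at 9 h and 5 from 3 h to 6 h. The cause of these shifts was not tested. In the main fit the counts among all 29623 genes were 6731, 3963, 9881, 3075, 7448 and 12919. Those under the settings above are not given here, so the counts do not show a shift particular to the 33 genes.

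With the replicate block the counts were 6, 1, 10, 3, 5 and 13. Deviations of same-numbered arrays correlated at -0.13 to 0.22 over 18 pairs, and those of differently numbered arrays at -0.23 to 0.20 over 36 pairs. With 3 arrays per time these values cannot show whether same-numbered arrays shared animals or handling, which the labels do not say. Leaving out 1 array gave 5 to 10, 0 to 2, 5 to 10, 1 to 3, 3 to 6 and 9 to 16. Among all genes these fits called 4508 to 6732, 2165 to 4071, 7771 to 10171, 1648 to 3179, 5401 to 7792 and 10550 to 12509. The count of the 33 genes at 6 h was 0 without 0.5 h replicate 1 or 3 or 6 h replicate 1 or 2. Of the 28 calls, 10 were kept in every such fit. Called directions reversed for Bmf from 3 h to 6 h with normexp (0.06) and for Casp8 at 9 h with 1 background value (-0.02). Uncalled differences that became called with the other sign were Casp8ap2 at 9 h with the mean of all probes (-0.25), Bid from 6 h to 9 h with median scaling (-0.21), and Bcl2l11 with 1 background value (-0.30 at 3 h, -0.38 at 6 h). Bcl2l11 was called the other way with quantile scaling (1.85, 1.84 and 1.48 at 3, 6 and 9 h) and cyclic loess (1.18, 1.23 and 0.99). The fit of only the times compared was not run for any time, where it does not apply.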
